A study of Mus musculus with 6 samples.

Results

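The homeobox genes described here are the 6 Iroquois genes Irx1 to Irx6, the 3 Msx genes Msx1 to Msx3, and Lhx2. They were chosen by name, each through the probe set annotated to it alone with the highest mean over 6 arrays, and all 10 were found, among 19937 genes represented in the same way. Each of the 10 had 1 such probe set. The tissue was mouse fetal gonad at E13.5 (embryonic day), dissected without the mesonephros, from animals of a mixed C57BL6/J and 129 background. The 3 wild-type arrays, numbered 1, 2 and 5, each held RNA of a pool of 6 gonads. The 3 mutant arrays, numbered 3, 4 and 6, each held a pool of 12 gonads of genotype Sox9flox/flox; Sf1:creTr/+, in which a Cre transgene under control of Sf1 (Nr5a1), a gene of the somatic cells of the gonad and of the adrenal, acts on floxed Sox9 alleles. No group carried the Cre or the floxed alleles alone, and pool size differed with genotype, so these cannot be told apart from the loss of Sox9. The comparison asks which of these paralogs differ when the testis-determining factor SOX9 is lost and genes of the ovary rise.

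Homeobox genes encode transcription factors that bind DNA through a homeodomain. The Iroquois proteins belong to the TALE class, whose homeodomain carries an insertion in its first loop, and their genes lie in a pair of clusters, Irx1, Irx2 and Irx4 on chromosome 13 and Irx3, Irx5 and Irx6 on chromosome 8. In the fetal ovary Irx3 and Irx5 are known from pregranulosa cells, the supporting cells that later surround the oocyte. Msx1 and Msx2 are repressors of the NK-like class, induced by BMP signalling in many embryonic tissues and known from the fetal ovary for a part in the entry of germ cells into meiosis. Msx3 is known from the dorsal neural tube, and Lhx2, of the LIM class, from the forebrain, the eye, the limb and hair follicles.

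Values are log2 RMA signals, and a difference is mutant minus wild type. A background mark of 6.67 log2 was taken as the 95th percentile of olfactory and vomeronasal receptor probe sets, genes of sensory neurons. A probe set passed at an adjusted p of 0.05 in limma's test over 28187 probe sets. Sox9 fell by 1.31 ± 0.14 log2 (SE; limma adjusted p = 0.00124). The gonadal genes Gata4, Nr5a1 and Wt1 measured at least 10.17 log2 on every array, and the germ cell gene Ddx4 at least 10.87. Of 5 gonad genes Wt1, Lhx9 and Emx2 rose, Wt1 by 0.57 log2 (limma adjusted p = 0.0239), and 2 did not pass. Emx2 alone remained without wild type 2, wild type 5 or mutant 3, and Wt1 was lost without mutant 4 too (adjusted p up to 0.147). The Y-linked gene Eif2s3y lay between 9.56 and 9.77 log2 on all 6 arrays. Of other Y-linked genes, Uty ran from 8.02 log2 on mutant 3 to 8.85 on mutant 6. Kdm5d ran from 7.98 log2 on mutants 3 and 4 to 8.46 on mutant 6. Neither passed between the groups (limma adjusted p = 0.961 and 0.739). Xist, the RNA of the inactive X chromosome, measured 7.29 log2 on mutant 3 and 4.97 to 5.48 on the 5 other arrays, so mutant 3 stood apart. The labels name no embryo sex, and whether that pool held XX gonads was not tested. Mutant 3 was also the highest array for Irx3, Msx1, Msx2, Lhx2 and the median of the meiotic genes. Wild type 5 stood apart in liver genes, with Afp at 11.26 log2 against 5.64 to 6.33 elsewhere. For the members that passed, results are given with and without these arrays, and for other results only in part. The labels do not say whether pools of 1 group stem from separate litters. The p-values therefore cover the spread between these samples alone, and it may be technical. Probe sets differ in their response, so levels are compared between groups and never between genes.

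Promoters are shown for Irx3, Msx1 and Msx2, the members whose differences held in every alternative setting in which they were measured. A RefSeq promoter entry (GRCm38.p6, 250 bases before to 50 after the start of transcription) was matched for 7 of the 10 members. The windows are Irx3, chr8:91801605-91801904, minus strand; Msx1, chr5:37824536-37824835, minus strand; and Msx2, chr13:53472731-53473030, minus strand. Capitals mark matches to the motifs named after them.
Irx3: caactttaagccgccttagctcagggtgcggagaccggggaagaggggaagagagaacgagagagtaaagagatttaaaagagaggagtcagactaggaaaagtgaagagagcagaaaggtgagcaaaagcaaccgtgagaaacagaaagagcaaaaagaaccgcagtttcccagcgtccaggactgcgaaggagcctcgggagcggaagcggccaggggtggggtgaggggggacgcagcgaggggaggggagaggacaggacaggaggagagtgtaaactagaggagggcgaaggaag
Msx1: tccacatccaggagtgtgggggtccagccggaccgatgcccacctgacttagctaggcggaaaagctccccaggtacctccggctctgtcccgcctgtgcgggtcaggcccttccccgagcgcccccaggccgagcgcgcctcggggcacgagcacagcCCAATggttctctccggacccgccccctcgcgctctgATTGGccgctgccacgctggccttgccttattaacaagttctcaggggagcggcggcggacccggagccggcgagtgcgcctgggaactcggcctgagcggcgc
Msx2: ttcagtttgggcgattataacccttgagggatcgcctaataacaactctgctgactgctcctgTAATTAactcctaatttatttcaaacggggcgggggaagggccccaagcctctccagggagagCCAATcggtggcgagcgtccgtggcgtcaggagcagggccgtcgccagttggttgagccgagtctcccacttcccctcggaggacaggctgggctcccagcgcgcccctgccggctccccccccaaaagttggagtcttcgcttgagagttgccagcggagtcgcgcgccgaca
The motifs were searched on both strands by their exact letters, and no matches in these windows overlapped. The Msx1 window held CCAAT at -91 to -87 and, on the opposite strand, at -54 to -50, counted from the start site, and the Msx2 window held it at -124 to -120. CCAAT, a common core promoter box, was in 37.4% of 32544 promoters of this length. TAATTA, the core that many homeodomains bind, was in the Msx2 window at -187 to -182 and in 5.29% of all promoters. The other motifs searched had no match in these 3 windows. They were the SMAD motif GGCGCC, which 11.9% of all promoters held, and the LEF/TCF motif of WNT signalling, read as CTTTGAA with a last base of A or T, which 8.67% held. The SOX motif, read as AACAAT and in a longer form ending in AAG, was in 15.6% of promoters. The NR5A1 motif AAGGTCA was in 4.71% of promoters, the GATA motif AGATAA was in 11.2% of them, the IRX motif ACATGT was in 5.21% and the TATA box, read as TATAAA, was in 13.6%. The GC content of the windows was 56.0% for Irx3, 70.0% for Msx1 and 61.0% for Msx2, against a median of 53.0% over all promoters.

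Of the 10 genes 4 rose in the mutant, Irx3, Msx1, Msx2 and Irx5, and 0 fell. Across all 19937 genes 6.94% passed, 2.64% in the upward and 4.3% in the downward direction. The other 6 members did not pass, and 6 of the 10 had an unadjusted limma p under 0.05. The share of all genes with such a p was not counted, so this count, like those of the lists below, has no comparison. In 6 members every mutant array lay above every wild-type array, against 12.1% of all genes, and in 0 members did every mutant array lie below, against 16.6%. The median difference over the 10 genes was 0.49 log2, against 0.00 over all genes. In pooled tissue, more cells of a type and more RNA per cell cannot be told apart.

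**Figure D1:**
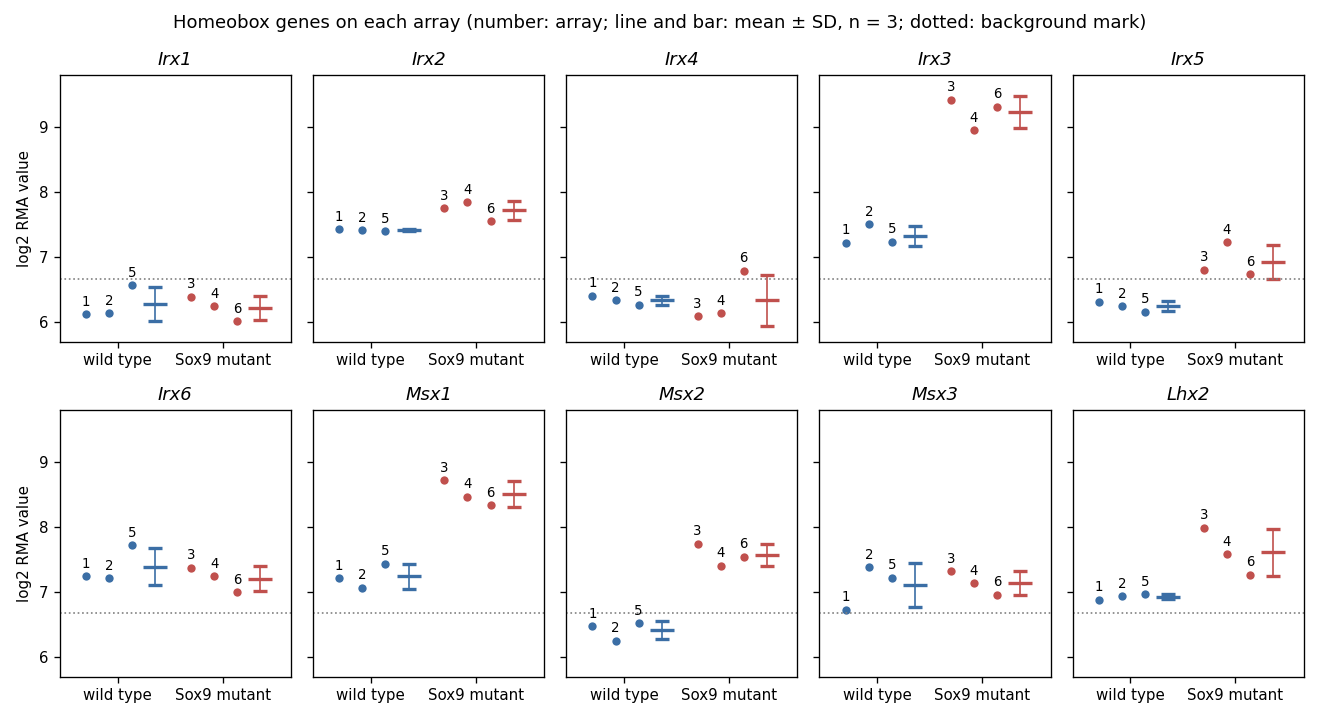
Each panel plots the log2 RMA value of 1 gene on the 3 wild-type (blue) and 3 Sox9 mutant (red) arrays, numbered as in the labels, with mean ± SD at the right and the background mark of 6.67 log2 dotted. The groups are apart for Irx2, Irx3, Irx5, Msx1, Msx2 and Lhx2, by 1.44 log2 for Irx3 and by 0.13 for Irx2.

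Irx3 had the largest difference of the family. It measured 7.22, 7.51 and 7.24 log2 on wild types 1, 2 and 5, and 9.42, 8.95 and 9.31 on mutants 3, 4 and 6. The lowest mutant array lay 1.44 log2 above the highest wild-type array. Irx3 rose by 1.90 ± 0.15 log2 (SE; limma adjusted p = 0.000313), 3.74-fold, the 35th largest increase of 19937 genes. The rise was 1.81 log2 without mutant 3 (adjusted p = 0.00308) and 1.86 without wild type 5 (adjusted p = 0.00242). Within numbers 1 to 4 it was 1.82 log2, and between wild type 5 and mutant 6 it was 2.07.

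Irx5, the next gene of the chromosome 8 cluster, rose by less. Its wild-type values of 6.32, 6.25 and 6.16 log2 all lay below the background mark, and its mutant values of 6.81, 7.23 and 6.74 all lay above it. The groups were 0.42 log2 apart, and mutant 4 was the highest array. The rise was 0.68 ± 0.15 log2 (SE; limma adjusted p = 0.0278), and set against the background mark, the bound that the dim wild-type signal allows, at least 1.19-fold. The call of Irx5 was lost without any 1 of wild types 1, 2 and 5 or mutants 3 and 4 (adjusted p = 0.0884, 0.083, 0.0888, 0.0634 and 0.0716), with differences of 0.53 to 0.74 log2.

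Irx6, the third gene of that cluster, did not follow. It measured 7.24, 7.21 and 7.72 log2 in wild type and 7.37, 7.24 and 7.00 in the mutant, and the groups overlapped. Its difference was -0.19 log2 with a 95% interval of -0.56 to 0.19 (limma adjusted p = 0.613), so a rise of the size of Irx3 lies outside the interval.

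The genes of the chromosome 13 cluster did not pass. Irx1, known from lung, heart and nervous system development, measured 6.12, 6.13 and 6.57 log2 in wild type and 6.39, 6.25 and 6.01 in the mutant, all below the background mark. Irx4, known for its part in the ventricle of the heart, measured 6.41, 6.34 and 6.27 in wild type and 6.10, 6.13 and 6.79 in the mutant, with mutant 6 alone above the mark. Signals at this level say little about either gene. The 95% interval of the difference was -0.42 to 0.30 log2 for Irx1 (adjusted p = 0.897) and -0.41 to 0.41 for Irx4 (adjusted p = 0.998), and the sign of both turned between settings.

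Irx2 lay above the mark on all 6 arrays and had the smallest spread among wild types. It measured 7.43, 7.42 and 7.40 log2 in wild type and 7.76, 7.85 and 7.56 in the mutant, and the groups did not overlap, with a gap of 0.13. Its difference of 0.31 ± 0.12 log2 (SE; limma adjusted p = 0.19) was positive in all 17 alternatives, at 0.23 to 0.39, and passed in 0 of them.

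Msx1 and Msx2 both rose. Msx1 measured 7.21, 7.06 and 7.43 log2 on the wild-type arrays and 8.72, 8.46 and 8.33 on the mutant arrays. It rose by 1.27 ± 0.15 log2 (SE; limma adjusted p = 0.0016), 2.41-fold, with a gap of 0.90 log2 between the groups. Msx2 measured 6.47, 6.25 and 6.52 log2 in wild type, all below the background mark, and 7.74, 7.40 and 7.54 in the mutant, all above it. It rose by 1.14 ± 0.13 log2 (SE; limma adjusted p = 0.00165), at least 1.85-fold against the mark. Both rises held without mutant 3, at 1.16 log2 for Msx1 (adjusted p = 0.00833) and 1.06 for Msx2 (adjusted p = 0.00907), and without wild type 5, at 1.37 and 1.20 (adjusted p = 0.00465 and 0.00635). Between wild type 5 and mutant 6 the differences were 0.90 and 1.02 log2, against 1.45 and 1.21 within numbers 1 to 4.

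Msx3 measured 6.73, 7.38 and 7.22 log2 in wild type and 7.32, 7.13 and 6.96 in the mutant. The groups overlapped, and wild type 1 was the lowest array. Its difference was 0.03 log2 with a 95% interval of -0.37 to 0.43 (limma adjusted p = 0.96), and its sign turned between settings.

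Lhx2 was higher on every mutant array and missed the threshold. It measured 6.88, 6.93 and 6.97 log2 in wild type and 7.98, 7.58 and 7.26 in the mutant, where the spread (SD 0.36) was wider than in wild type (SD 0.04). The difference was 0.68 ± 0.17 log2 (SE; limma adjusted p = 0.0534), with a 95% interval of 0.29 to 1.07. Without mutant 3, the highest array, the difference was 0.49 (adjusted p = 0.127), and without mutant 6, the lowest of the mutants, it was 0.85 and passed (adjusted p = 0.0134). Lhx2 did not pass without wild type 1, 2 or 5 or mutant 4 either (adjusted p = 0.181, 0.131, 0.114 and 0.125), with differences of 0.66 to 0.70. Of 17 alternatives Lhx2 passed in 9, with adjusted p from 0.0134 to 0.213 over all of them. LIM homeodomain proteins act with cofactors. Of 10 measured LIM cofactor genes, Ldb2, which bridges LIM proteins, fell by 0.87 log2 (adjusted p = 0.00814), Lmo3, a LIM-only protein, was called higher (adjusted p = 0.0136) with a signal below the background mark on all 6 arrays, and 8 did not pass, among them Ldb1 with a difference of 0.02 (adjusted p = 0.964). The median of the 10 cofactor genes was -0.27 log2, and 6 had an unadjusted limma p under 0.05. With numbers 5 and 6 as a batch 3 of them fell and 1 rose. Ldb2 lost its call when wild type 5 and mutant 4 were both left out (adjusted p = 0.0886), and Lmo3 lost its call without wild type 1, wild type 5 or mutant 4 (adjusted p up to 0.14) and was not tested under either filter on dim probe sets.

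**Figure D2:**
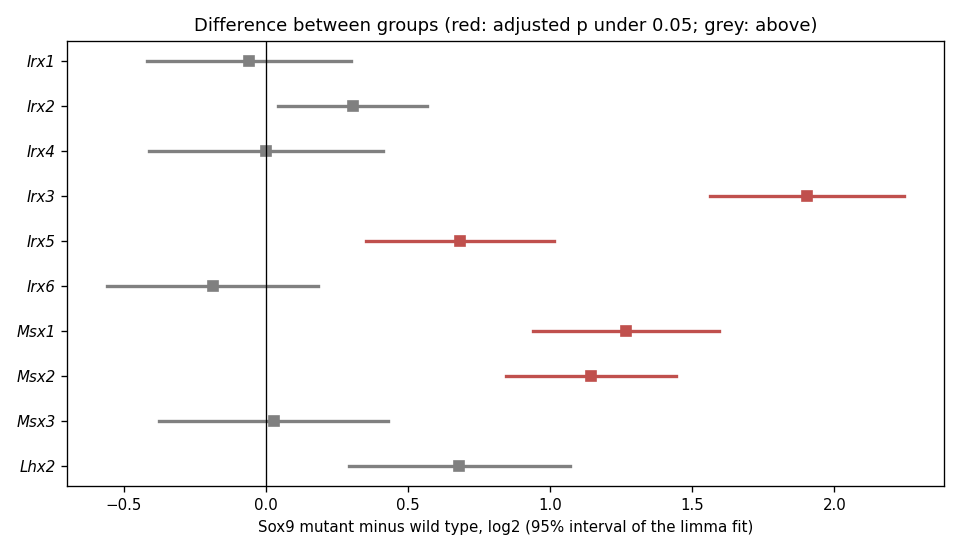
Points give the difference between Sox9 mutant and wild type (log2, horizontal axis) for each of the 10 genes, with its 95% interval from the limma fit on 3 arrays a group. Irx3, Irx5, Msx1 and Msx2, in red, passed the adjusted p of 0.05. The intervals of Irx1, Irx4, Irx6 and Msx3 include 0.

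Paralogs were set against each other by the difference between both probe sets within each array, for 6 pairs. With 3 arrays against 3 the exact permutation test cannot give less than p = 0.1, so it could pass for none, and the values are a description. Irx5 and Msx2 lay below the background mark on every wild-type array, so their rises are bounds and the excess of another gene over them can be overstated. Irx1 lay below the mark on all 6 arrays and Irx4 on 5, so a pair with either compares a gene with a signal near background. The change of Irx3 was larger than that of Irx5 by 1.22 ± 0.31 log2 in measured signal (SE, n = 3 each; exact permutation p = 0.1, 0.15 adjusted over the 6 pairs), and the groups did not overlap. Against Irx1 the difference for Irx3 was 1.96 ± 0.27 log2, and that for Irx5 against Irx6 was 0.87 ± 0.26, each with no overlap (exact permutation p = 0.1). Irx1 differed from Irx2 by -0.36 ± 0.17 log2 (exact permutation p = 0.1), and Irx2 from Irx4 by 0.30 ± 0.31 with overlap (exact permutation p = 0.4). The value for Irx3 and Irx5 was 1.07 log2 without mutant 3 and 1.51 without mutant 4. Without wild type 5 it was 1.77 for Irx3 and Irx1 and 0.66 for Irx5 and Irx6. For Irx2 and Irx4 the value was 0.14 without mutant 4, 0.16 without mutant 3 and 0.61 without mutant 6. For Irx1 and Irx2 it was -0.21 without wild type 5. The measured signals of Msx1 and Msx2 differed in change by 0.12 ± 0.09 log2, with overlap (exact permutation p = 0.3), by 0.06 without mutant 4 and by 0.20 without mutant 6.

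The mutant arrays did not rank the members alike. Against the wild-type mean, Irx3 was higher by 2.10, 1.63 and 1.99 log2 on mutants 3, 4 and 6, and Irx5 by 0.56, 0.99 and 0.50, so mutant 4 was lowest for Irx3 and highest for Irx5. Msx1 was higher by 1.48, 1.23 and 1.09 and Msx2 by 1.32, 0.99 and 1.12. Lhx2 was higher by 1.06, 0.65 and 0.34, with a wider spread between mutants than these 4 genes. Mutant 4 had the smallest fall of Sertoli genes (list median -1.47 log2, against -2.65 on mutant 3 and -2.26 on mutant 6). The median of 12 meiotic genes stood 2.78, 2.05 and 1.10 log2 above wild type on mutants 3, 4 and 6, an order shared by Lhx2 and Msx1 and also by Irx1, Irx6 and Msx3, which did not pass. The median of 13 pregranulosa genes varied less, at 1.27, 1.35 and 1.43. The part of these lists in the members' differences was not tested.

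**Figure D3:**
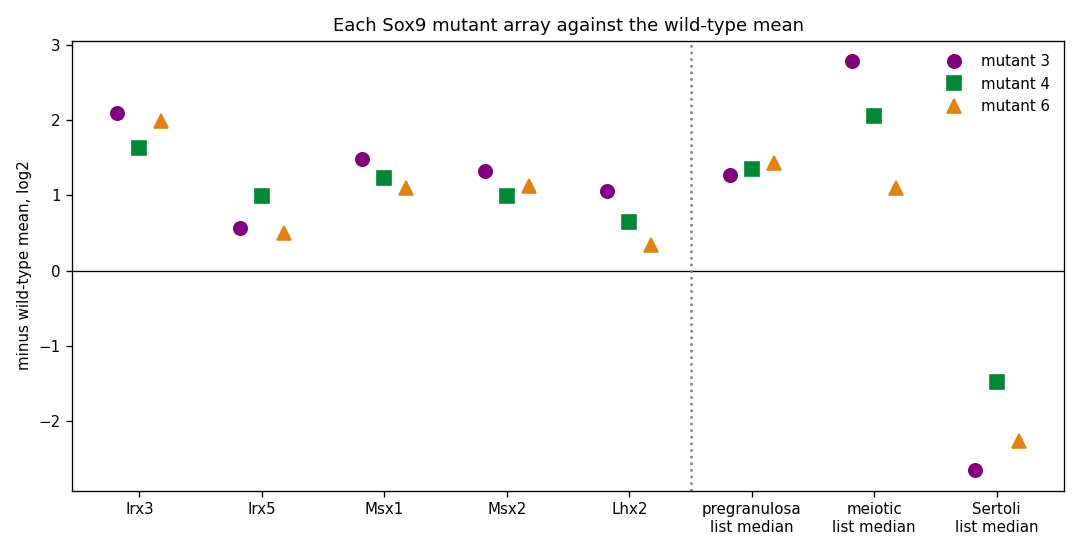
Symbols give the value on each mutant array minus the wild-type mean (log2) for 5 homeobox genes and, right of the dotted line, for the medians of the pregranulosa, meiotic and Sertoli lists. Lhx2 and the meiotic median both run from mutant 3 over mutant 4 to mutant 6, while Irx5 is highest on mutant 4.

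The members that rose did so beside most genes of the ovarian supporting cells. Of 13 measured pregranulosa genes 11 rose, 0 fell and 2 did not pass, with a median of 1.25 log2. Fst, an activin and BMP antagonist, rose by 3.62 log2 (adjusted p = 0.000188), Bmp2 by 2.11 (0.000283), Runx1, a transcription factor of these cells, by 1.93 (0.000188) and Kitl, the ligand of the germ cell receptor KIT, by 1.85 (0.000323). The count of 11 lay between 9 and 11 with 1 array left out. Of 10 Sertoli genes 8 fell, Sox9 among them, and 0 rose (median -2.13 log2). Amh, the hormone that removes the Mullerian ducts, fell by 4.33 log2 (adjusted p = 0.00654), Cst9 fell by 4.14 (0.00221), Hsd17b3, an enzyme of testosterone synthesis, fell by 3.51 (0.00495) and Aard fell by 2.94 (0.00195). Amh and Hsd17b3 lost their calls with eBayes under trend and robust settings (0.0802 and 0.0518). Amh, Cst9 and Hsd17b3 lay below the background mark on mutants 3 and 6 and measured 8.91, 7.91 and 7.49 log2 on mutant 4. Their mean falls thus join uneven arrays, and the signals on mutants 3 and 6 give only bounds. Of 12 meiotic genes 7 rose and 0 fell (median 2.01 log2). Meioc and Stra8, which act at the entry into meiosis, lay below the background mark on every wild-type array and rose at least 6.94-fold and at least 3.47-fold (adjusted p = 0.00147 and 0.000369), and Rec8, a meiotic cohesin, rose by 2.55 log2 (adjusted p = 0.000227). Meiob was called higher (adjusted p = 0.0237) with a mutant mean at the background mark, and its call was lost without any 1 of the wild types or mutant 4 (up to 0.154). Among 7 general germ cell genes Dppa3, a pluripotency-linked gene, fell by 1.55 log2 (adjusted p = 0.0202), a call lost without any 1 wild type (up to 0.0815), and 6 did not pass. The median of these 7 was -0.55 log2, and 6 of them, with differences of both signs, had an unadjusted limma p under 0.05. With numbers 5 and 6 as a batch 3 of them fell and 1 rose, while 0 passed with trend and robust settings. The meiotic count was 5 to 8 with 1 array left out, 5 without wild type 1, wild type 5 or mutant 4, and 4 with eBayes under trend and robust settings or without both wild type 5 and mutant 4.

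Msx genes are classical BMP targets. Of the BMP pathway, few genes passed. Among 7 ligands Bmp2 rose, Bmp4 fell by 1.09 log2 (limma adjusted p = 0.000869) and 5 did not pass. The median of the 7 ligands was -0.32 log2, and 5 of the 7 had an unadjusted limma p under 0.05. Without mutant 4, or with numbers 5 and 6 as a batch, 2 ligands fell. So did 2 with either filter on dim probe sets or with probe sets of a gene averaged. Bmp4 measured 8.49, 8.55 and 8.67 log2 in wild type and 7.43, 7.52 and 7.50 in the mutant. Of 10 receptors and Smads, Bmpr1b, a type I receptor below the background mark on every wild-type array, rose at least 1.21-fold (adjusted p = 0.0129) and 9 did not pass. That call was lost without wild type 1 or mutant 3 (adjusted p up to 0.0607), and the filter at the background mark removed the gene. The median of the 10 receptor and Smad genes was 0.21 log2, and 5 of them had an unadjusted limma p under 0.05. With further quantile normalization, array weights, or numbers 5 and 6 as a batch, 2 of them rose. Of 6 antagonists Fst rose and 5 did not pass. Of 7 other BMP target genes 0 passed in limma's test, and 3 had an unadjusted p under 0.05. Among them Id2 had a difference of 0.31 log2 (adjusted p = 0.249) and Bambi one of 0.05 (adjusted p = 0.866), and the median of the 7 was 0.05. Id1 was higher (0.42 log2, adjusted p = 0.225) and Smad7 lower (-0.43 log2, adjusted p = 0.0673), both without passing. With numbers 5 and 6 as a batch, with trend and robust settings, or with probe sets of a gene averaged, 1 gene of this list fell. So did 1 with either filter on dim probe sets. Of 10 WNT target genes 6 rose and 0 fell, with a median of 0.74 log2. Axin2, Lef1 and Lgr5 of these 6 are in the pregranulosa list too, as are Bmp2 and Fst, so the lists are not separate evidence. Lgr5, a receptor for R-spondins, rose by 1.77 log2 (adjusted p = 0.000294), Nkd1, a feedback inhibitor, by 0.98 (0.0193), Axin2, another, by 0.94 (0.00147) and Notum, a WNT deacylase, by 0.75 (0.00822). The WNT count was 3 without wild type 2, without mutant 3, or without both wild type 5 and mutant 4. It was 4 without wild type 1, wild type 5 or mutant 4, and 7 without mutant 6. The call of Nkd1 was lost without any 1 array but mutant 6 (adjusted p up to 0.164), and that of Notum when wild type 5 and mutant 4 were both left out (0.0843). Lef1 lost its call without wild type 1 or 2 or mutant 3, and within numbers 1 to 4 (up to 0.0667). Rnf43 was higher (0.55 log2, adjusted p = 0.0667) and Dkk1 lower (-0.44 log2, adjusted p = 0.0814), both without passing. With numbers 5 and 6 as a batch, either filter on dim probe sets, or probe sets averaged, 1 WNT target gene fell.

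**Figure D4:**
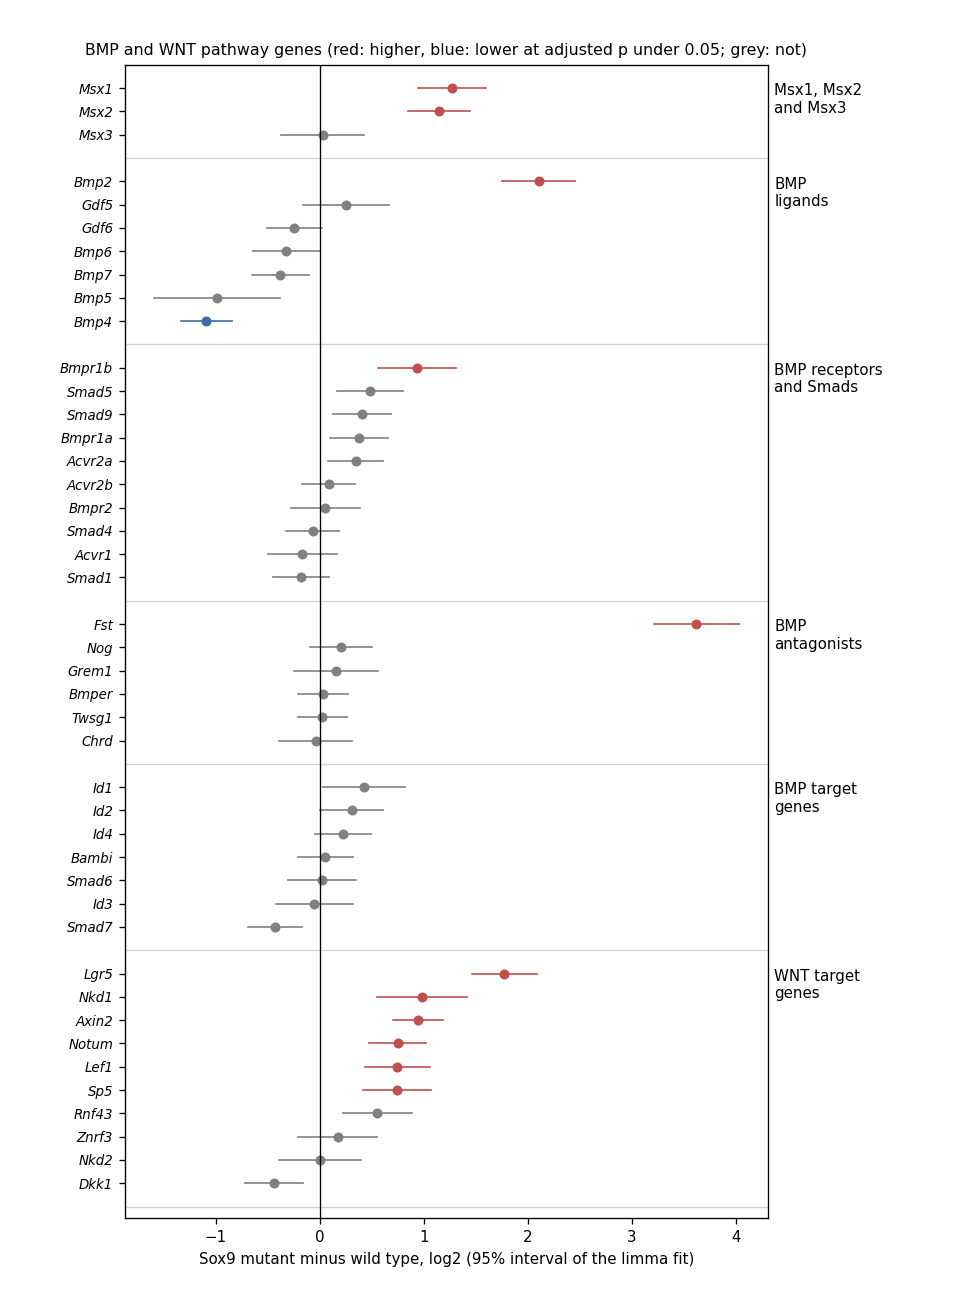
Points give the difference between Sox9 mutant and wild type (log2) with its 95% interval for the Msx genes and, below them, lists of BMP and WNT pathway genes. Bmp2, Fst and 6 of 10 WNT target genes lie to the right in red, while the 7 other BMP target genes are all grey.

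Related homeobox genes showed rises and falls in each of the TALE and LIM classes. Among 11 other TALE genes Pbx3, a partner of HOX proteins, rose by 1.10 log2 (limma adjusted p = 0.0125), while Mkx, the closest relative of the Iroquois genes, fell by 0.72 (adjusted p = 0.0209), Tgif1, a repressor in TGF-beta signalling, fell by 0.71 (adjusted p = 0.00776) and Pknox2 fell by 0.55 (adjusted p = 0.0182). Of these, Mkx measured 7.56, 7.97 and 7.98 log2 in wild type and 7.03, 7.07 and 7.25 in the mutant, the opposite direction to Irx3. Among 10 other LIM genes Lhx9, needed for the gonad to form, rose by 0.76 (adjusted p = 0.0149) and Lhx1, known from the kidney ducts, fell by 0.96 (adjusted p = 0.0162). Among 14 other NK-like genes Emx2, of the early gonad and urogenital ridge, rose by 1.61 (adjusted p = 0.00252) and Dlx3 by 0.63 (adjusted p = 0.0288). The medians of these classes were 0.00, 0.02 and 0.11 log2, against 0.00 over all genes. The call of Emx2 held in each alternative, and the others were lost in some. Pbx3 lost it without wild type 1 (adjusted p up to 0.0869), Tgif1 when wild type 5 and mutant 4 were both left out (0.0509), Mkx without wild type 2 or 5 or mutant 3 or 4 (up to 0.173), Pknox2 without any 1 array but mutant 6 (up to 0.148), Lhx9 without wild type 2 or 5 or mutant 3 (up to 0.0756), Lhx1 without wild type 1 or 2 or mutant 3 (up to 0.0834) and Dlx3 without wild type 1 or 5 or mutant 3 or 6 (up to 0.127).

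**Figure D5:**
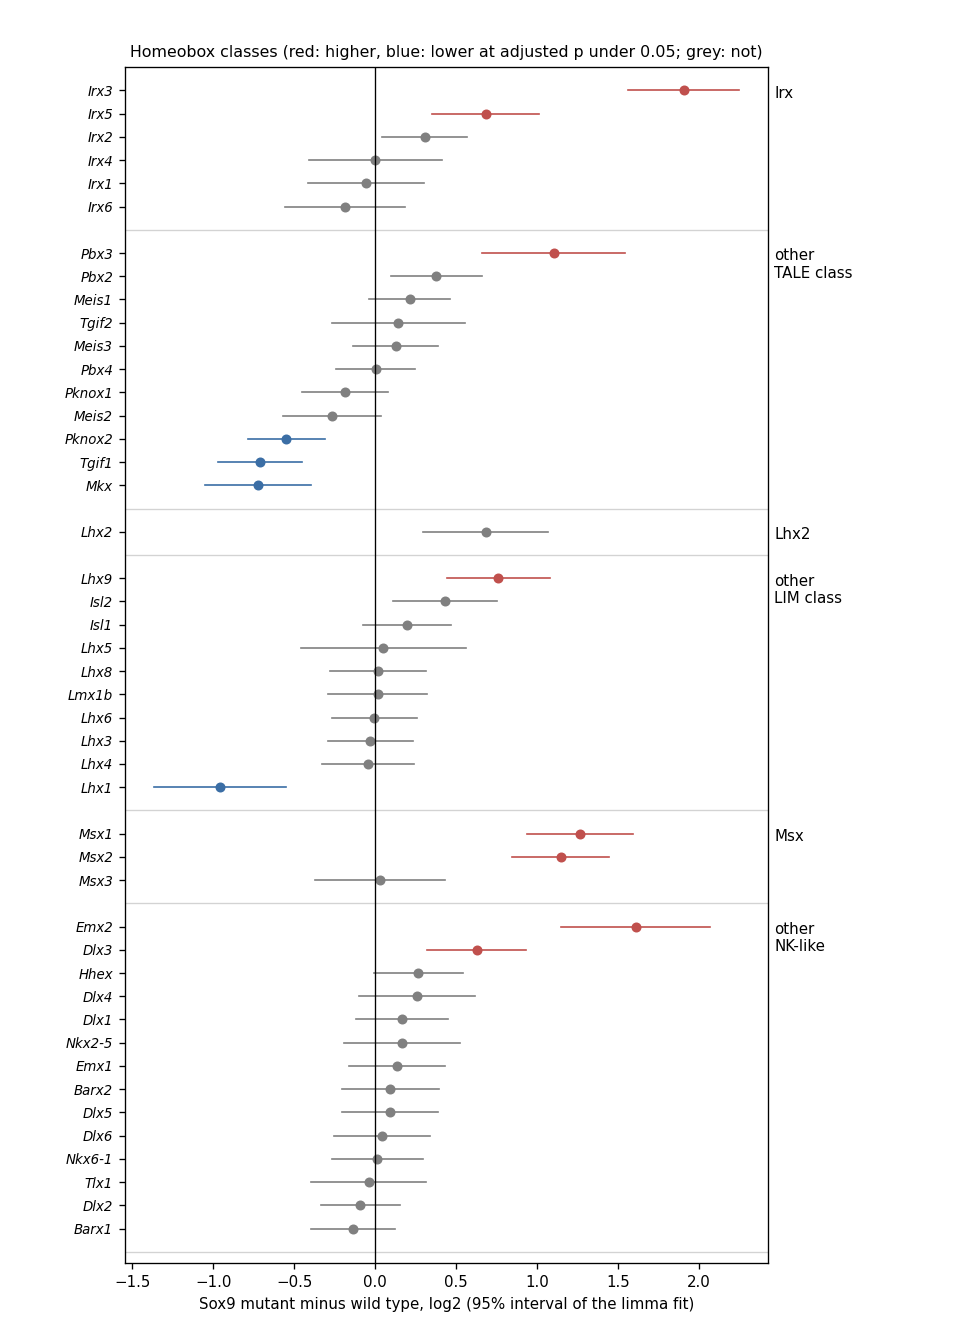
Points give the difference between Sox9 mutant and wild type (log2) with its 95% interval for the Irx, Lhx2 and Msx genes and for other genes of their homeobox classes. Irx3 at 1.90 and Emx2 at 1.61 log2 lie farthest right, and Mkx, Tgif1, Pknox2 and Lhx1 lie to the left in blue.

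The genes most like each rising member were sought by the root mean square difference between mean-centred log2 values over the 6 arrays, among 13011 genes with a mean above the background mark. This is a description, and it follows the group difference above all. For Irx3 these were Gata2, a transcription factor (0.08 log2), Lzts1 (0.11) and Runx1 (0.13). For Irx5 they were Lmo7 (0.06), Rhpn2 (0.11) and Sema4f (0.11). For Msx1 they were Wnt2b, a WNT ligand (0.12), Foxl2, a transcription factor of ovarian supporting cells (0.13), and Ryr2, a calcium channel (0.15). For Msx2 they were Wnt2b again (0.07), Myl9, a myosin light chain (0.10), and Wnt4, the WNT ligand of the fetal ovary (0.10).

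Markers of other cells that could carry these genes were read from lists. Of 5 measured genes of limb and face mesenchyme, where Msx genes are abundant, Prrx1 rose by 0.58 log2 (limma adjusted p = 0.0214) and 4 did not pass, and the log2 of their summed signal was 9.39 to 9.60 in wild type and 9.54 to 9.58 in the mutant. The call of Prrx1 was lost without any 1 array but mutant 6 (adjusted p up to 0.177). Of 8 measured mesonephric and duct genes Gata3, below the background mark on every wild-type array, rose at least 1.94-fold (adjusted p = 0.000662), Lhx1 fell and 6 did not pass. Among these 6, Pax8 had a difference of 0.44 log2 (adjusted p = 0.124) and Pax2 one of 0.03 (adjusted p = 0.936). Of the 8 genes 3 had an unadjusted limma p under 0.05. Their summed signals were 10.22 to 10.40 log2 in wild type and 10.30 to 10.42 in the mutant. Of 8 coelomic epithelium genes Krt18 rose by 0.95 (adjusted p = 0.00191), Krt8 rose by 0.71 (adjusted p = 0.0151) and 6 did not pass. The median of the 8 was 0.305 log2, and 4 had an unadjusted limma p under 0.05. Their summed signals were 11.26 to 11.49 in wild type and 11.78 to 11.98 in the mutant. The call of Krt8 was lost without wild type 1, 2 or 5 (adjusted p up to 0.106). Among the 5 genes of peritubular and other smooth muscle cells, Acta2 fell by 1.51 log2 (adjusted p = 0.00218), Tagln fell by 1.07 (adjusted p = 0.00919), Myh11 rose by 0.56 (adjusted p = 0.0374) and 2 did not pass, with summed signals of 11.83 to 11.96 log2 in wild type and 10.50 to 11.07 in the mutant. Tagln lost its call without wild type 1 (adjusted p = 0.054), and Myh11 without any 1 array (up to 0.173). None of 4 measured neural genes passed in limma's test (2 had an unadjusted p under 0.05), nor any of 7 endothelial genes (4 had an unadjusted p under 0.05). Signals of 3 of the 4 neural genes lay below the background mark in both groups, so little could be read from them. With numbers 5 and 6 as a batch 1 neural gene fell, and 1 endothelial gene fell under either filter on dim probe sets or with array weights. The summed signal was 8.41 to 8.76 and 8.31 to 8.50 log2 for the neural genes and 11.61 to 11.79 and 11.46 to 11.71 for the endothelial genes. Their part in the members' differences was not tested.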

How the data were processed

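The authors deposited log2 values in 1 series table, made with RMA per the submitters' processing notes. RMA subtracts background, equalizes arrays by quantiles and summarizes probes. It compresses differences near background, and a general change in RNA content cannot be seen in such values. Its other settings: not given in the sources used here. Of 34760 rows, 6573 (18.9%) with identifiers below the lowest annotated one were not used, a rule set after the identifiers were seen. Of the remaining 28187, 21640 were annotated to 1 gene, and each gene was represented by its brightest probe set. Mutant and wild type were set against each other by limma 3.58.1 under R 4.3.3 (lmFit, eBayes, 2-sided, 4 residual degrees of freedom) with Benjamini-Hochberg adjustment, and the fit was tested on simulated data. Precision is limited by the number of arrays. Alternatives were further normalizations, filters on dim probe sets, trend and robust settings, array weights, numbers 5 and 6 as a batch, each array left out, a mean over probe sets, and a threshold of 0.01; numbers 1 to 4 alone, and both wild type 5 and mutant 4 left out, were added after seeing the data. The members and lists were chosen with earlier results of these data known. Named were all members, up to 4 of the largest called changes of each list described (or, where none was called, genes of high mean), and the nearest genes by profile and by position. Id1, Smad7, Rnf43, Dkk1, Pax8, Pax2, Ldb1, Crnde and Irx3os were named after their values were seen. Figures were drawn with matplotlib 3.10.9.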

Additional observations from a re-analysis of the deposited data

How the results depend on the processing

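Across the 10 genes the count of rises, 4, was 3 to 5 in every alternative and the count of falls 0, so the count moved by at most 1. The genes behind a count differ: the filter at the background mark removes Irx5 and passes Lhx2. Irx3 and Msx1 passed in all 17 alternatives and Msx2 in the 16 in which it was measured. Signs turned for members that never passed, where signals are dim or differences near 0. Irx4 gave -0.0641 log2 with quantile normalization, -0.0207 with a common median, -0.11 with array weights, -0.26 within numbers 1 to 4 and -0.22 to 0.124 with 1 array left out (negative without wild type 2 or 5 or mutant 6). Irx1 gave 0.0181 with array weights, 0.19 within numbers 1 to 4, 0.0753 without both wild type 5 and mutant 4 and -0.144 to 0.0913 with 1 array left out (positive without wild type 5 or mutant 6). Msx3 gave -0.0032 with quantile normalization and -0.16 to 0.162 with 1 array left out (negative without wild type 1 or mutant 3), and Irx6 gave 0.0782 within numbers 1 to 4. Among the paralog pairs, numbers 1 to 4 alone gave 1.63 for Irx3 minus Irx1, 0.24 for Msx1 minus Msx2, 0.64 for Irx2 minus Irx4 and -0.19 for Irx1 minus Irx2. Over all genes, 527 rose and 857 fell. The counts were 262 to 546 and 330 to 746 with 1 array left out, least without wild type 2 and wild type 1, 820 rises with the batch term, 199 and 328 at a threshold of 0.01, 513 falls within numbers 1 to 4, and 199 and 405 without both wild type 5 and mutant 4. The cause of these moves was not tested, apart from the smaller number of arrays. No paired analysis was possible because the groups share no replicate number.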

Other observations

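Genes beside the members on the chromosomes were read from the order of the RefSeq gene table (GRCm38.p6), as the 2 nearest represented genes on each side of each Irx cluster and of each other member. Beside the Irx3, Irx5 and Irx6 cluster, Fto, an RNA demethylase whose introns hold enhancers of Irx3, had a difference of 0.14 log2 (limma adjusted p = 0.553), and Rpgrip1l, a cilium gene, rose by 0.55 (adjusted p = 0.0178). On the other side Mmp2, a matrix protease, fell by 0.59 (adjusted p = 0.0269) and Lpcat2, a lipid acyltransferase, fell by 0.74 (adjusted p = 0.0304). Inside the cluster, and chosen after the values were seen, the noncoding gene Crnde rose by 0.52 log2 (adjusted p = 0.0446) from a mean of 6.15 to one of 6.67, close to the background mark, and Irx3os, the antisense neighbour of Irx3, went from 6.65 to 6.93 (adjusted p = 0.416). The call of Rpgrip1l was lost without any 1 array but mutant 6 (adjusted p up to 0.139), that of Lpcat2 without any but mutant 3 (up to 0.156), that of Mmp2 without any 1 array (up to 0.137) and that of Crnde without any but mutant 6 (up to 0.172).

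Of the 4 genes beside the Irx1, Irx2 and Irx4 cluster 0 passed in limma's test, with differences from -0.34 (Adamts16) to 0.05 log2 (Mrpl36). Beside Msx1, Nsg1, a neuronal vesicle protein, rose by 0.76 log2 (adjusted p = 0.00421) and held in each alternative, while Stx18, nearer to it, had a difference of 0.24 (adjusted p = 0.33). None of the 4 genes beside Msx2 passed, among them Drd1, a dopamine receptor, at 0.12 (adjusted p = 0.755), and none of those beside Msx3 or Lhx2, where Dennd1a, next to Lhx2, had 0.29 (adjusted p = 0.409).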
